A study of Mus musculus with 20 samples.

Results

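The question addressed here was whether voluntary wheel running altered the effect of oral combined contraceptives (OC) on gene expression in mouse liver. The quantity that answers it is the diet by activity interaction: the OC effect in running mice minus the OC effect in sedentary mice, on the log2 scale. A value of 0 means that the diet changed a gene by the same fold with and without running, a positive value that the fold was higher in runners, and a negative value that it was lower. All 20 libraries of the study entered it, and 10207 genes of 23993 with an intact count line passed the filter on low counts.

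RNA was taken from the liver of individual female mice, and each library came from 1 animal, with 5 animals in each of 4 groups. The groups were vehicle diet without running (vehicle sedentary), vehicle diet with voluntary wheel running (vehicle running), OC diet without running (OC sedentary), and OC diet with voluntary wheel running (OC running). The hormones in the diet, their dose, the strain, the age of the mice and the running time are not given in the sources used here, and nothing in the labels says that mice of different groups shared a cage or a day. Library totals over the genes with an intact count line ran from 10883936 to 16134618 counts. Hepatocyte genes such as Alb were high in every library (mean level of the hepatocyte list 12.45 to 13.01 log2 CPM). CPM is the count scaled to a common library total over the genes tested. Vehicle sedentary replicate 2 stood apart from the other libraries on the second principal component (score 53.0, against -17.1 to 11.2 in the other 19), and it had the highest mean level of the macrophage list (4.50 against 2.98 to 3.76 log2 CPM). Vehicle sedentary replicate 5 was the highest of its group for respiratory and ribosomal genes.

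As background, combined contraceptives pair an estrogen with a progestin. The liver carries receptors for estrogen, and much of its sex-biased expression follows the pattern of growth hormone release, which steroids shape. Endurance activity draws on hepatic glucose output, fatty acid oxidation and mitochondrial respiration, so the same organ is a target of the drug and of the exercise.

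The OC effect itself was broad in both settings. In sedentary mice OC changed 1665 of 10207 genes (16.3%), with 930 higher (9.11%) and 735 lower (7.20%). In running mice it changed 1343 (13.2%), with 724 higher (7.09%) and 619 lower (6.06%) (edgeR quasi-likelihood test, Benjamini-Hochberg adjusted p under 0.05). The split by direction depended on the scaling. With library totals as the only scaling, which moved the median of all genes from -0.01 to 0.10 in sedentary mice and from 0.01 to 0.12 in runners, 1712 were higher and 360 lower in sedentary mice and 1390 and 335 in runners. With upper quartile scaling they were 743 and 922 in sedentary mice and 709 and 654 in runners. The first count of 1665 was 998 without OC sedentary replicate 1. The count of 1343 was 817 when OC running replicate 1 was left out and 835 when replicate 3 was. The pair of effects share no library. They had 598 called genes in common, which is 35.9% of the sedentary calls and 44.5% of the running calls: 339 were higher in both, 256 lower in both and 3 changed in opposite directions. Across all genes tested, Pearson's r of the effects was 0.77 and Spearman's rho 0.41, given as descriptions since genes are not independent replicates.

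**Figure D1:**
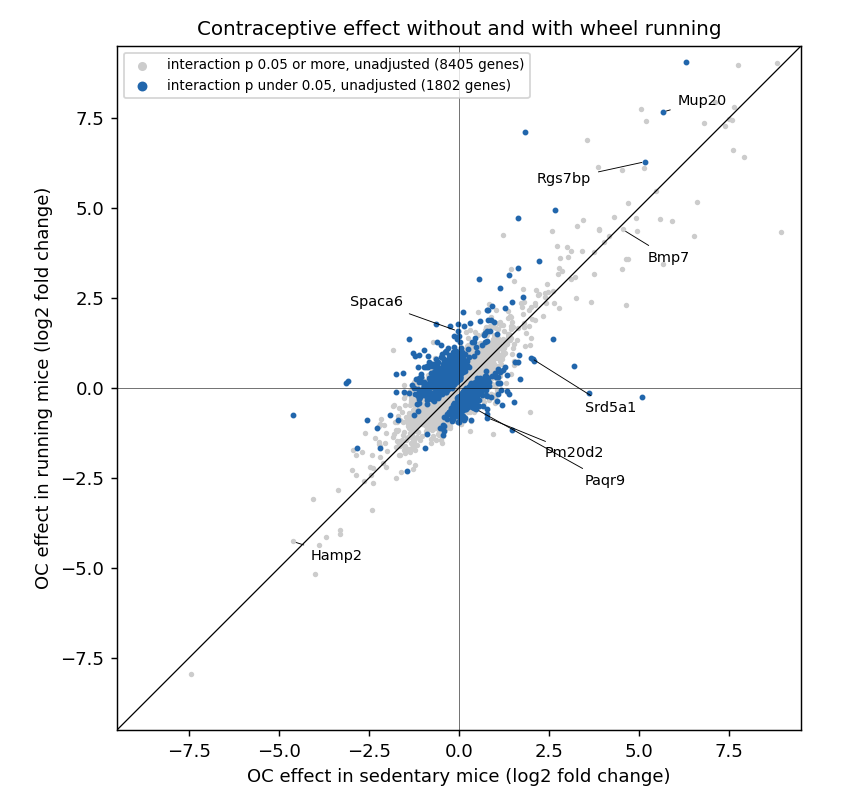
OC effect in running mice (vertical axis, log2 fold change) against OC effect in sedentary mice (horizontal axis, log2 fold change), 1 point for each of 10207 genes, with the line of equal effects. Blue points are the 1802 genes with an unadjusted interaction p under 0.05, and strong responders such as Hamp2 and Bmp7 lie near the line.

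No gene was called for the interaction. The test gave 0 of 10207 genes (0%) at an adjusted p under 0.05 with edgeR's quasi-likelihood test, and its smallest adjusted p was 0.0995, reached by 4 genes. At an unadjusted p under 0.05 there were 1802 genes (17.7%), of which 921 were positive (9.02%) and 881 negative (8.63%). With upper quartile scaling, which moved the median of all genes from 0.01 to 0.06, these were 1143 and 647. DESeq2 called 119 genes, 72 positive and 47 negative, but after its filter on mean counts it gave an adjusted p to 1302 genes only. Without that filter it called 33, of which 15 were positive. limma voom called 0, with 1740 at an unadjusted p under 0.05, and 4 with sample quality weights. Leaving out 1 library at a time gave between 0 and 2 calls by edgeR: Pm20d2 and Tpcn1 without vehicle sedentary replicate 1, Egln1 without OC running replicate 2, and Paqr9 without OC running replicate 4.

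A count of 0 does not show that the effects were equal. The median standard error of the interaction was 0.20, against 0.14 for the OC effect in sedentary mice, since 4 group means enter it. For 7725 genes (75.7%) the 95% interval of the interaction lay inside a 2-fold difference in either direction, so a larger one was outside the interval there. Of the 206 genes called and changed over 2-fold in both settings, the interval lay inside 2-fold for 57 and inside 4-fold for 141. Among genes called in sedentary mice only, 463 of 1067 had an unadjusted interaction p under 0.05, and among those called in running mice only, 299 of 745 did. These shares use the contrasts that chose the genes, so they are descriptions. None of the genes that passed in 1 setting only was called for the difference itself by edgeR over the 20 libraries. DESeq2 with its filter called the difference for some of them, among them Tpcn1, Scap and Igfbp2 (DESeq2 adjusted p = 9.64e-05, 0.0202 and 0.0306).

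The OC responders described first are those with the smallest adjusted p in both settings, which are not those with the largest fold. Each is given with the 95% interval of its interaction. Bmp7, a secreted growth factor, rose from 1.41 ± 0.232 to 33.1 ± 4.65 CPM (SD, n = 5) without running and from 2.02 ± 0.696 to 42.4 ± 19.9 CPM in runners. Its interaction was -0.14 with an interval of -1.04 to 0.75, so a 2-fold weaker effect in runners lay inside it. Adora1, an adenosine receptor, gave -1.63 and -1.61 (interaction 0.02, -0.49 to 0.53), whose interval excludes a 2-fold difference. Dpy19l3, a C-mannosyltransferase of the endoplasmic reticulum, gave 3.22 and 3.09 (-0.13, -0.78 to 0.52), also inside 2-fold. The same held for Wfdc2, a small secreted protein (0.16, -0.59 to 0.92), for Osbpl5, a lipid transfer protein (0.01, -0.86 to 0.89), and for Ces1b, a carboxylesterase (0.52, 0.09 to 0.95), whose interval left out 0 before adjustment. Isyna1, which makes inositol phosphate from glucose phosphate, had an interaction of 0.52 (-0.23 to 1.28), Nebl, an actin-binding protein, 0.47 (-0.46 to 1.40), Bnc2, a zinc finger protein, -0.20 (-1.47 to 1.06), and the hepcidin gene Hamp2 0.35 (-0.86 to 1.57). In these 4 the interval reached past 2-fold, and without vehicle sedentary replicate 2 the interaction was 0.25 for Isyna1 and 0.16 for Nebl.

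Among the responders chosen by that rule, Rgs7bp had the largest fitted interaction. Rgs7bp encodes a protein that binds regulators of G-protein signalling. It rose from 2.17 ± 0.511 to 78.3 ± 25.5 CPM without running and from 1.49 ± 0.517 to 118 ± 45.5 CPM in runners. The OC running libraries held 99.1, 130.4, 121, 58.3 and 183 CPM and the OC sedentary libraries 51.9, 72.8, 91.2, 60.1 and 116 CPM, so the groups overlapped. Its interaction was 1.11 (SE 0.45, edgeR adjusted p = 0.237). Lifr, the leukemia inhibitory factor receptor, rose by 2.60 and 2.703 on the log2 scale (interaction 0.10, -0.69 to 0.89). Alb, serum albumin, fell by 0.77 and 0.79 (-0.01, -0.43 to 0.40), and the iron hormone Hamp fell by 1.16 and 1.37 (-0.20, -1.02 to 0.61).

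Most tested sex-biased genes of the liver moved on the contraceptive diet whether or not the mice ran. Of those listed, 20 of 39 male-biased and 17 of 46 female-biased genes were tested. Of 20 tested male-biased genes, 19 rose in sedentary mice and 18 in runners, with median effects of 4.10 and 3.99 on the log2 scale. For the interaction, 1 had a positive and 0 a negative unadjusted p under 0.05, and the median was -0.04 against 0.01 over all genes. The 1 gene was Mup20, a male-typical urinary protein that signals between mice, at 168 ± 239 and 8512 ± 3130.1 CPM in sedentary mice and 43.9 ± 25.2 and 8917 ± 3624 in runners. In it vehicle sedentary replicate 2 held 593 CPM against at most 105 in its group. Without that library the interaction of Mup20 was 0.55 (unadjusted p = 0.299 by edgeR), against 2.0005 with it. Reads of Mup genes can be split among near-identical copies. The median of the male-biased list was -0.55 without OC running replicate 3. Of 17 tested female-biased genes, 13 fell and 1 rose in sedentary mice, and 15 fell and 1 rose in runners. None had an unadjusted interaction p under 0.05, and their median interaction was -0.05. This list was highest among OC running mice in replicate 4, at 5.45 log2 CPM against 4.48 to 4.64 in the others.

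The genes nearest to a call are given as values. They were taken in order of unadjusted p, so their size is that of the most extreme of 10207 genes. Pm20d2, a dipeptidase gene on chromosome 4 (33174230 to 33189737, GRCm38), was a low-level transcript. Its libraries held 2.65, 1.04, 1.99, 1.83 and 1.77 CPM in vehicle sedentary and 4.16, 2.93, 3.302, 2.78 and 2.95 CPM in OC sedentary mice. Among runners they held 3.93, 3.39, 4.88, 3.58 and 4.002 CPM on vehicle and 1.91, 2.03, 1.72, 2.49 and 2.98 CPM on OC. OC mice lay above vehicle mice without running and below them with it, with no overlap in either setting. The effects were 0.79 (edgeR adjusted p = 0.0145) and -0.82 (adjusted p = 0.00933), each past the threshold, and the interaction was -1.61 (SE 0.29, adjusted p = 0.0995). Over its alternatives the adjusted p ran from 0.00127 to 0.294.

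Tpcn1, a cation channel of endosomes and lysosomes (chromosome 5, 120534153 to 120588673), held 96.5, 66.3, 75.3, 89.2 and 72.5 CPM in vehicle sedentary and 119.6, 124, 142, 112 and 119 CPM in OC sedentary mice. Among runners the values were 116, 108, 109, 126 and 114 CPM on vehicle and 89.3, 113, 102, 99.7 and 114 CPM on OC. OC raised it without running, with no overlap, and the running groups overlapped. The sedentary effect was 0.62 (edgeR adjusted p = 2.69e-04), the running effect -0.15 (0.341) and the interaction -0.77 (SE 0.14, adjusted p = 0.0995, 9.64e-05 to 0.394 over its alternatives).

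Egln1 encodes the prolyl hydroxylase that marks hypoxia-inducible factor for degradation when oxygen is present (chromosome 8, 124908587 to 124949324). Sedentary libraries held 39.6, 37.1, 37.97, 33.2 and 34.8 CPM on vehicle and 38.1, 34.9, 38.9, 36.3 and 36.5 CPM on OC, which overlapped. Running libraries held 47.6, 44.6, 45.2, 45.1 and 40.95 CPM on vehicle and 29.4, 35.5, 27.9, 30.6 and 30.6 CPM on OC, with all vehicle values above all OC values. The OC effect was 0.02 without running and -0.54 with it (edgeR adjusted p = 0.914 and 4.90e-05). The interaction was -0.55 (SE 0.11, adjusted p = 0.0995). Miga2, a protein of the mitochondrial outer membrane that promotes fusion (chromosome 2, 30364233 to 30385521), showed the same order. It held 63.7 ± 5.93 and 69.03 ± 5.803 CPM in sedentary mice and 76.6 ± 6.45 and 52.5 ± 5.92 CPM in runners (interaction -0.66, SE 0.13, edgeR adjusted p = 0.0995). Running vehicle values were 74.7, 70.4, 86.2, 79.7 and 71.8 CPM and running OC values 46.96, 50.2, 56.5, 60.8 and 48.1 CPM, again without overlap.

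**Figure D2:**
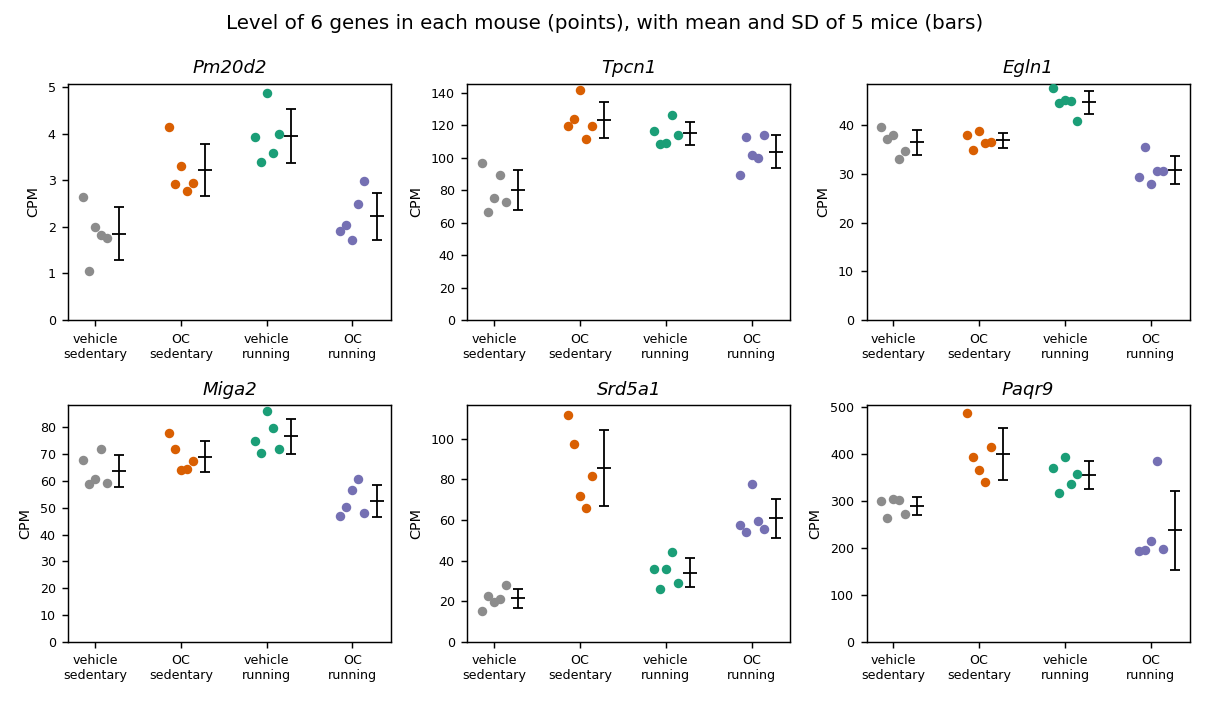
Level in CPM (vertical axes, linear from 0) of Pm20d2, Tpcn1, Egln1, Miga2, Srd5a1 and Paqr9 in each of 5 mice per group, with the mean and SD as bars. In Pm20d2 OC mice lay above vehicle mice without running and below them with it, while Srd5a1 was higher on OC in both settings.

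Srd5a1 encodes a steroid reductase that converts testosterone and progesterone to their dihydro forms (chromosome 13, 69573449 to 69611442). Vehicle sedentary libraries held 15.2, 22.8, 19.8, 21.03 and 27.997 CPM and OC sedentary libraries 112, 97.4, 71.6, 65.7 and 81.8 CPM. Vehicle running libraries held 35.8, 25.9, 35.8, 44.04 and 29.2 CPM and OC running libraries 57.6, 54.3, 77.6, 59.3 and 55.7 CPM. OC raised it in both settings without overlap, by 2.004 (edgeR adjusted p = 1.29e-07) and by 0.83 (adjusted p = 0.00208) on the log2 scale. The interaction was -1.17 (SE 0.24, adjusted p = 0.141, 0.00559 to 0.298 over its alternatives).

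The 3 genes called in opposite directions by the separate contrasts were Pm20d2, Paqr9 and Mfsd13a. Paqr9 belongs to the progestin and adipoQ receptor family, and Mfsd13a to the major facilitator family of transporters. Paqr9 held 299.8, 264, 305, 302 and 271 CPM in vehicle sedentary and 487, 393, 366, 339.8 and 414 CPM in OC sedentary mice. Among runners it held 369, 318, 394, 335 and 358 CPM on vehicle and 193, 195, 215, 386 and 197 CPM on OC. OC running replicate 4 was the high one and overlapped the vehicle runners. The effects were 0.47 and -0.58 (edgeR adjusted p = 0.0419 and 0.0169). The interaction was -1.05 (adjusted p = 0.163), and without OC running replicate 4 it was -1.30 (edgeR adjusted p = 1.07e-04, against a highest of 0.461 over the alternatives). Mfsd13a held 3.18 ± 0.488 and 4.698 ± 0.549 CPM without running and 4.89 ± 0.401 and 3.44 ± 0.967 CPM with running (interaction -1.07, edgeR adjusted p = 0.189).

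Of the 24 genes with the smallest unadjusted p that were named, 17 had a negative and 7 a positive interaction. Spata5l1, an ATPase of ribosome biogenesis, Lrrc14, Dhx37, an RNA helicase that works on the small ribosomal subunit, and Cmah, which makes the sialic acid N-glycolylneuraminic acid, were each raised by OC in sedentary mice. For Cmah the means were 100.01 ± 26.1 and 219 ± 33.7 CPM there and 148 ± 24.1 and 164 ± 30.7 CPM in runners (interaction -0.98). Interactions were -0.96 for Spata5l1, -0.66 for Lrrc14 and -0.67 for Dhx37. In Cmah the running groups overlapped and the sedentary groups did not. Pde4dip, a centrosome and Golgi scaffold (-0.67), Map3k4, a stress-activated kinase (-0.73), Wdr7 (-0.64), Ints1, a subunit of the Integrator complex (-0.63), Sipa1l1, a regulator of Rap signalling (-0.53), and Dnajb14, a cochaperone of the endoplasmic reticulum membrane (-0.50), were also negative. The positive ones were Spaca6, Etfbkmt, Selenos, Erlec1, Cfap20 and the ribosomal protein genes Rpl36a and Rpl21.

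Spaca6, known for its role in fertilisation, held 1.58, 5.16, 3.61, 3.02 and 4.93 CPM in vehicle runners and 14.9, 10.9, 11.3, 9.66 and 7.91 CPM in OC runners, with no overlap. Its sedentary groups held 6.77 ± 1.14 and 6.65 ± 1.83 CPM and overlapped (interaction 1.60, SE 0.35, edgeR adjusted p = 0.163). Etfbkmt, a methyltransferase of the mitochondrial electron transfer flavoprotein, held 48.96 ± 11.8 and 63.1 ± 9.65 CPM without running and 38.5 ± 6.22 and 93.9 ± 16.7 CPM with running (interaction 0.92). Selenos, a selenoprotein of the pathway that removes misfolded proteins from the endoplasmic reticulum, held 76.3, 77.3, 65.2, 67.8 and 74.3 CPM in vehicle runners and 139.6, 88.7, 131, 114 and 105 CPM in OC runners, also without overlap. Its sedentary groups held 83.4 ± 14.5 and 79.9 ± 7.52 CPM and overlapped (interaction 0.74). Erlec1, a lectin of the same pathway, had 0.43 and Cfap20, a ciliary protein, 0.53.

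Genes were also read as lists. Of 36 gene lists with at least 5 tested members, 10 had a median interaction above 0.2, 4 had one below -0.2 and 22 lay between. In 2 lists, cytosolic ribosomal proteins and respiratory complex I, 50% or more of the members passed an unadjusted p under 0.05 in 1 direction. No member of any list was called by edgeR for the interaction. Its counts below are at an unadjusted p and read against 9.02% positive and 8.63% negative over all genes. Counts of OC effects are at an adjusted p. They read against 9.11% higher and 7.20% lower over all genes in sedentary mice, and 7.09% and 6.06% in runners. With library totals as the only scaling, 1712 of 10207 genes were higher and 360 lower in sedentary mice, and 1390 and 335 in runners. Counts of 1 or 2 often moved by 1 when a library was left out, and the moves of over 1.5 times in higher counts are given with each list. Medians within 0.1 of 0 (male-biased, female-biased, hepatocyte, steroid, acute phase, folding, nucleolar and endothelial genes) changed sign when some single libraries were left out. Calls of small OC effects depended on the scaling: with library totals as the only scaling, those of Mfsd13a, Mfn2, Dmgdh and Cpt2 in runners missed the threshold, as did that of Paqr9 in sedentary mice with upper quartile scaling. In bulk tissue, fewer cells of a type and less RNA per cell cannot be told apart.

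The cytosolic ribosomal proteins build the ribosome together with ribosomal RNA, and their mRNAs are transcribed and translated in step. Of 75 tested genes, 72 had a positive interaction at an unadjusted p under 0.05 (96.0%) and 0 a negative one. The median was 0.64 and the range 0.12 to 0.94. The 3 others were Rpl4, Rpl29 and Rps2, at 0.19, 0.18 and 0.12. DESeq2 called 46 of them, all positive, which is 38.7% of its 119 calls among 1302 genes given an adjusted p. How many of the 1302 were ribosomal protein genes is not given here, so this share has no base rate. Without its filter on mean counts, 4 of its 33 calls were ribosomal protein genes. The OC effect alone had a median of -0.22 in sedentary mice, where 0 of 75 were called, and 0.43 in runners, where 26 rose and 0 fell. With library totals as the only scaling 1 rose in sedentary mice and 63 in runners, and with upper quartile scaling 4 fell in sedentary mice and 20 rose in runners. Of the running effects, the median was -0.36 on vehicle and 0.27 on OC. These share groups with the OC effects and are the same 4 means read the other way.

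Among the ribosomal genes, Rpl36a had the smallest p. It held 151, 159, 148, 142 and 180.3 CPM in vehicle sedentary and 114, 133, 114, 145 and 136 CPM in OC sedentary mice. Vehicle runners held 110.3, 128, 125, 109 and 134 CPM and OC runners 181, 135, 171, 159.8 and 139.8 CPM. All OC runners lay above all vehicle runners, while the sedentary groups overlapped (interaction 0.66, SE 0.14, edgeR adjusted p = 0.163). Rpl21 showed 399 ± 30.6 and 334 ± 16.98 CPM without running and 329 ± 19.4 and 392 ± 52.3 CPM with running (interaction 0.51). Rpl12 had the highest interaction of the list, 0.94 (SE 0.26, edgeR adjusted p = 0.201), with 260.2 ± 54.7 CPM in vehicle runners and 478 ± 129.6 CPM in OC runners. Ribosomal protein genes have many processed copies in the genome, so how reads were shared among copies makes single values uncertain.

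The promoters of the 4 ribosomal protein genes with the smallest interaction p and an entry in the table are shown because the list's interactions lay on one side of 0. Each run covers 60 bases before to 20 from the annotated start (RefSeq, GRCm38.p6), 5′ to 3′ on the gene's strand. Capitals mark matches to CCGGAAG, the core bound by ETS family factors, or to CTCTTT, a pyrimidine stretch of the kind found at the start of these genes, on either strand.
Rpl36a: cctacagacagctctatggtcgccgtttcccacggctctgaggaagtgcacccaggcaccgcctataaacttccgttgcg
Rpl12: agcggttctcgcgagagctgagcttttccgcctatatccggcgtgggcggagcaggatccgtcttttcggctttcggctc
Rpl19: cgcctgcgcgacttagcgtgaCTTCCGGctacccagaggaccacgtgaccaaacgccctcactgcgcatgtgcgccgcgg
Rpl11: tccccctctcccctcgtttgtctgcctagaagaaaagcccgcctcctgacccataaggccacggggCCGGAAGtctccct
Rpl36a lies at chrX:134585594-134585673 (plus strand), Rpl12 at chr2:32961652-32961731 (plus strand), Rpl19 at chr11:98026650-98026729 (plus strand) and Rpl11 at chr4:136053374-136053453 (minus strand). In the whole window of 300 bases, CCGGAAG was found in 23 of 56 tested ribosomal protein genes with an entry (41.1%) and in 18.03% of 7825 tested genes with one. CTCTTT was found in 28 of 56 (50%) and in 19.7%. In the stretches printed, only CCGGAAG had matches, on the other strand in Rpl19 and on the gene's strand in Rpl11. Neither motif contains the other, and a match is a description of the letters only.

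The ribosomal result was uneven over animals. The mean level of the 75 genes was 8.46, 8.50, 8.32, 8.45 and 8.70 log2 CPM in vehicle sedentary mice and 7.99, 8.30, 8.11, 8.48 and 8.49 in OC sedentary mice. In runners it was 7.83, 8.39, 8.09, 7.95 and 8.33 on vehicle and 8.91, 8.28, 8.71, 8.52 and 8.205 on OC. OC running replicates 1, 3 and 4 were high and replicates 2 and 5 lay within the vehicle runners, so the groups overlapped. Without OC running replicate 1 the count was 65 of 75 (median 0.53), the lowest of the 20 leave-one-out fits. Without both vehicle sedentary replicates 2 and 5 it was 66.

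**Figure D3:**
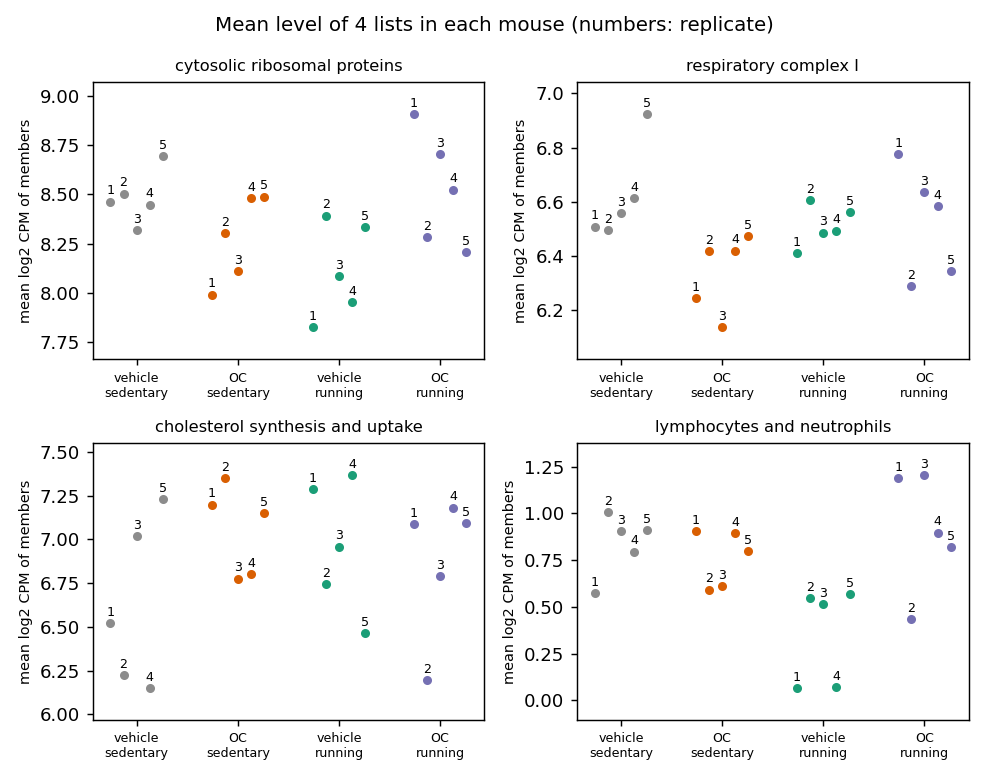
Mean log2 CPM of the tested members (vertical axes) of 4 lists in each mouse, numbered by replicate, by group. OC running replicates 1, 3 and 4 lie above replicates 2 and 5 for cytosolic ribosomal proteins and for respiratory complex I.

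Transcript length, taken as that of the longest annotated transcript of each gene, moved with the interaction. Over 10206 genes, Spearman's rho between the interaction and transcript length was -0.33, a description across genes of the same libraries. The median interaction was 0.30 in the 10% of genes with the shortest transcripts (168 to 1310 bases) and -0.17 in the 10% with the longest. The median length was 1094 bases for the ribosomal protein genes and 3273 for all genes, and 49 of the 75 were in the shortest 10%. Without ribosomal protein genes, that 10% had a median of 0.28. Within libraries, the level relative to the mean of all libraries correlated with length at -0.34, -0.30 and -0.27 in OC running replicates 1, 3 and 4 but at 0.20 and 0.09 in replicates 2 and 5, and at -0.25 in vehicle sedentary replicate 5. The value was 0.31 in OC sedentary replicate 3 and -0.07 to 0.11 in the other OC sedentary mice. It was -0.01 to 0.16 in vehicle runners and -0.11 to 0.12 in the other vehicle sedentary mice. With a trend on length removed in each library, 56 of the 75 ribosomal protein genes kept a positive interaction at an unadjusted p under 0.05, with a median of 0.41. The longest transcript need not be the one expressed, and what that means for this fit was not tested. The part of length in the other results was not tested beyond the values given beside them.

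**Figure D4:**
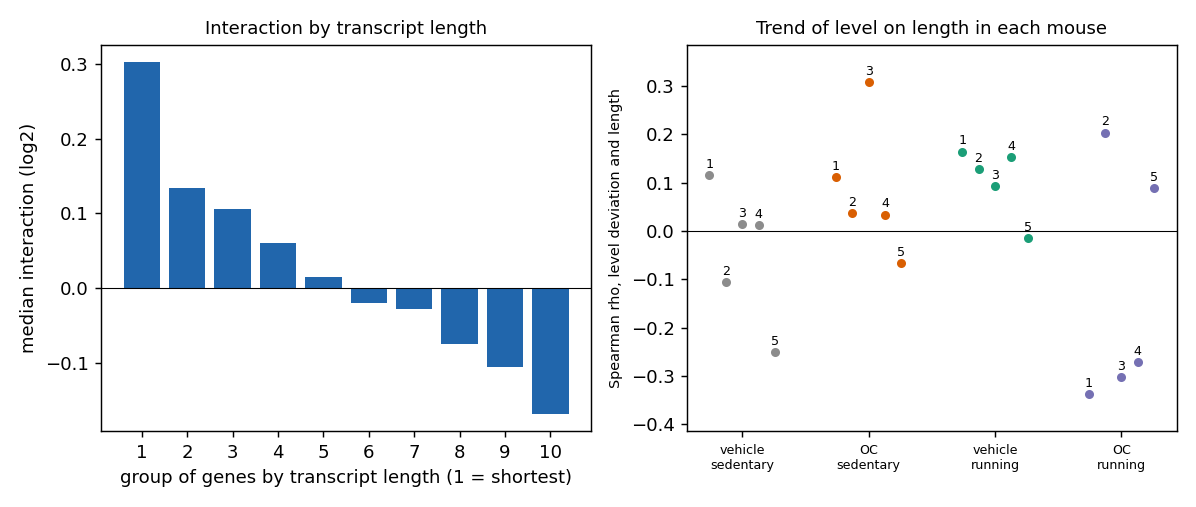
Left, median interaction (log2, vertical axis) in 10 groups of genes of about equal number by transcript length (horizontal axis, 1 is the shortest), from 0.30 to -0.17. Right, Spearman's rho between level relative to the mean of all libraries and transcript length in each mouse, numbered by replicate, with OC running replicates 1, 3 and 4 at -0.27 or lower and OC sedentary replicate 3 at 0.31.

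Nuclear genes of the respiratory chain pass electrons to oxygen and drive ATP synthesis. Of 44 tested complex I genes, 22 had a positive interaction at an unadjusted p under 0.05 and 0 a negative one (median 0.34). OC lowered 13 of them in sedentary mice and 3 in runners, and raised 0 in either. With library totals as the only scaling it lowered 3 and raised 1 in sedentary mice and lowered 2 and raised 2 in runners, and with upper quartile scaling it lowered 21 in sedentary mice. Ndufa1, a small subunit of complex I, held 105, 131, 119, 114 and 155 CPM in vehicle sedentary and 84.9, 103, 77.7, 105 and 109 CPM in OC sedentary mice. In runners it held 105 ± 11.1 CPM on vehicle and 124 ± 22.3 CPM on OC (interaction 0.62, SE 0.18, edgeR adjusted p = 0.201). The groups overlapped in both settings. The count moved with single animals. It was 4 without OC running replicate 1, 5 without vehicle sedentary replicate 5 or OC sedentary replicate 3, 6 without vehicle running replicate 1, 7 without OC sedentary replicate 1, 9 and 10 when OC running replicate 3 or 4 was left out, and 14 without vehicle running replicate 3 or 4. With the trend on length removed it was 6 (2 negative), with a median of 0.09.

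In complexes II to V, with 16 genes tested, 7 were positive and 0 negative (median 0.31), and 4 were positive without OC running replicate 1. Uqcrh, a hinge subunit of complex III, held 519.96 ± 84.5 and 345 ± 59.3 CPM without running and 404 ± 87.8 and 431 ± 71.3 CPM with running (interaction 0.69). Its OC effect was called in sedentary mice (-0.59, edgeR adjusted p = 0.0144) and not in runners (0.09, 0.733). Cox4i1, a subunit of cytochrome c oxidase, had -0.48 and 0.10 (interaction 0.57). With the trend on length removed, 3 of the 16 were positive, with a median of 0.12.

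Mitochondrial ribosomal proteins translate the proteins encoded in mitochondrial DNA. Of 79 tested, 27 were positive and 1 negative (median 0.27). The count was 16 without OC running replicate 1, 17 without OC sedentary replicate 3 and 41 without OC running replicate 2, and 16 with the trend on length removed. Mrpl24 had 0.42 and Mrps2, the negative one, -0.39. Genes of mitochondrial dynamics and import, another list, were positive for 8 and negative for 2 of 34 (median 0.13). The positive count ran from 3 without OC running replicate 1 to 14 without vehicle sedentary replicate 3. Mfn2, which fuses mitochondrial outer membranes, was 1 of the 2 negative ones. It was at 133 ± 26.2 and 159 ± 9.25 CPM without running and 171 ± 21.3 and 128 ± 15.6 CPM with running. OC lowered Mfn2 in runners (-0.41, edgeR adjusted p = 0.0321) and its interaction was -0.67 (0.201). Tomm22, a receptor of the import pore in that membrane, had 0.52.

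**Figure D5:**
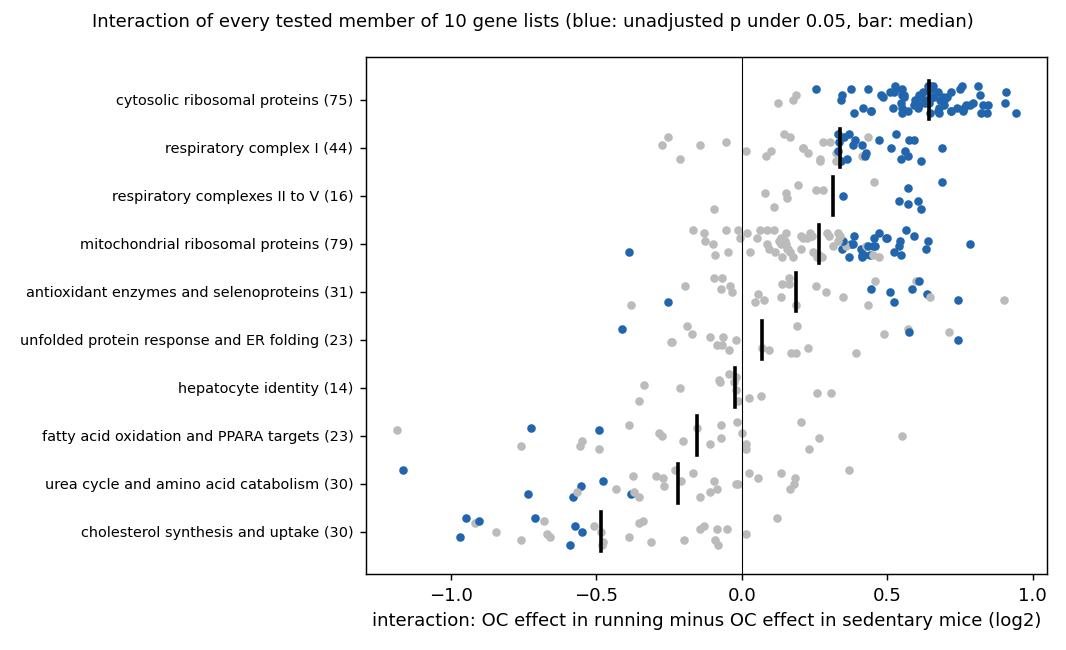
Interaction (log2, horizontal axis) of every tested member of 10 gene lists, with the number tested in brackets, blue at an unadjusted p under 0.05 and a bar at the median. Cytosolic ribosomal proteins lie between 0.12 and 0.94, and cholesterol genes have the lowest median of the lists shown (-0.48).

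Antioxidant enzymes and selenoproteins remove peroxides and repair oxidised proteins. Of 31 tested, 7 were positive and 1 negative (median 0.18, and 0.09 with 5 positive when the trend on length was removed). The median was 0.30 without OC sedentary replicate 5. Prdx4, a peroxiredoxin of the endoplasmic reticulum, held 146 ± 24.7 and 113 ± 16.6 CPM without running and 111 ± 9.21 and 134 ± 31.5 CPM with running (interaction 0.64). The plasma selenoprotein Selenop had 0.44. The mitochondrial enzymes Prdx3, Txnrd2 and Nnt, which feed peroxide removal in the matrix, had intervals of -0.19 to 0.51, -0.20 to 0.36 and -0.38 to 0.20, all inside 2-fold. Those of Gpx1 and catalase (Cat), which act in the cytosol and the peroxisome, were -0.12 to 0.63 and -0.77 to 0.01.

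Cholesterol synthesis and uptake genes were the lowest of the lists drawn. Of 30 tested, 0 were positive and 7 negative (23.3%), with a median of -0.48 that stayed at -0.48 with the trend on length removed. The 7 included Srebf2, the transcription factor of the pathway, Scap, which escorts it from the endoplasmic reticulum, and enzymes such as Mvk, Nsdhl, Hsd17b7 and Dhcr7. OC raised 4 of the 30 in sedentary mice (10 with library totals as the only scaling) and 0 in runners, where 1 fell. Scap held 149 ± 15.6 and 165 ± 10.8 CPM without running and 184, 135, 172, 211 and 146 CPM in vehicle runners against 118, 132, 123, 131 and 126 CPM in OC runners. All vehicle runners were above all OC runners (interaction -0.57, edgeR adjusted p = 0.201). The mean level of the list varied widely within groups, from 6.15 to 7.23 log2 CPM in vehicle sedentary mice and from 6.198 to 7.18 in OC runners. The count was 3 without vehicle running replicate 1 and 11 without vehicle sedentary replicate 5.

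Genes of steroid handling were few but included Srd5a1. Of 16 tested, 0 were positive and 4 negative, among them Srd5a1, Hsd17b4 and Hsd17b7, with a median over the list of -0.01. Hsd17b7 is also counted in the cholesterol list above. Of the 16, 8 had a fitted interaction above 0 at any p. In the growth hormone and IGF1 axis, 1 of 19 was positive and 2 negative. OC lowered Igf1, the liver-made growth factor, in runners (-0.51, edgeR adjusted p = 0.00577), and in sedentary mice its effect was -0.02. Its libraries held 828, 712, 825, 834 and 890.3 CPM on vehicle and 467, 691, 531, 642 and 538 CPM on OC among runners, with no overlap. Igfbp2, a binding protein of the same factor, went the other way: OC lowered it in sedentary mice (-1.14, edgeR adjusted p = 3.66e-04) and gave -0.22 in runners (interaction 0.92, adjusted p = 0.201). Its vehicle means were 1133 ± 193 CPM without running and 733 ± 211 CPM with it.

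In fuel metabolism, amino acid catabolism and urea cycle genes were negative for 6 and positive for 0 of 30 (median -0.22), with 3 negative and a median of -0.13 without vehicle running replicate 4. Sardh and Dmgdh, which strip methyl groups from glycine derivatives in mitochondria, were lowered by OC in runners (-0.53 and -0.49) and had sedentary effects of 0.05 and 0.06. Fatty acid oxidation and PPARA target genes were negative for 2 and positive for 0 of 23 (median -0.15), with 5 negative and a median of -0.40 without OC running replicate 2 and a median of -0.06 without vehicle sedentary replicate 5. The 2 of 23 are close to the 8.63% negative over all genes. Acss3, a mitochondrial acyl-CoA synthetase, fell on OC in both settings, from 67.2 ± 11.2 to 34.8 ± 4.03 CPM and from 93.3 ± 9.88 to 29.2 ± 7.04 CPM (interaction -0.72, edgeR adjusted p = 0.201). Cpt2, which completes fatty acid entry into mitochondria, was lowered in runners (-0.44) with an interaction of -0.49. Klb and Fgfr4, which form a receptor for a fibroblast growth factor of the bile acid axis, were lowered in runners (-0.85 and -0.65) with interactions of -0.51 and -0.43. The fasting hormone Fgf21 had 0.26 (-1.06 to 1.59), and the stress hormone Gdf15 0.74 (-0.83 to 2.31), intervals too wide to show a difference or its absence.

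Protein folding genes of the endoplasmic reticulum rose on OC for 8 of 23 in sedentary mice and for 13 in runners, with 0 lower in either. Their interaction was positive for 2 (Selenos and Sec61b, a subunit of the translocation channel) and negative for 1 (Sel1l, an adaptor of the degradation complex, -0.41), with a median of 0.07. Nucleolar ribosome biogenesis factors, which assemble the subunits that hold the ribosomal proteins, were positive for 5 and negative for 1 of 37, with a median of -0.02. The positive count was 3 without vehicle running replicate 1. OC raised 11 of these in each setting. With library totals as the only scaling it raised 17 in sedentary mice and 20 in runners, against 1712 and 1390 of all 10207 genes. Acute phase proteins were positive for 3 and negative for 1 of 24 (median 0.08). For Hpx, which binds heme, the means were 6784 ± 2319 and 4301 ± 402 CPM without running and 5065 ± 539.6 and 5557 ± 1490.5 CPM with running (interaction 0.79). The acute phase count was 1 without vehicle sedentary replicate 4 or OC running replicate 4.

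Markers of other liver cell types were also read, since a shift in cell makeup would enter bulk RNA. Lymphocyte and neutrophil genes were positive for 7 and negative for 0 of 16 (median 0.67). The mean level of the list was 0.07 to 0.57 log2 CPM in vehicle runners, 0.43 to 1.21 in OC runners, 0.57 to 1.01 in vehicle sedentary and 0.59 to 0.90 in OC sedentary mice. The neutrophil gene S100a9 held 0.823, 1.201, 0.535, 1.35 and 1.501 CPM in vehicle runners and 5.01, 1.19, 3.65, 7.25 and 1.58 CPM in OC runners (interaction 2.41, edgeR adjusted p = 0.201), and OC running replicates 1, 3 and 4 were the high ones. Another of the 7, Prtn3, was itself raised by OC, from 0.756 ± 0.932 to 58.9 ± 33.5 CPM in sedentary mice. In runners it rose from 0.167 ± 0.132 to 94.7 ± 55.2 CPM, an OC effect of 9.06 on the log2 scale. The mean level of the list includes Prtn3, so this 1 gene weighs heavily on it, and the mean without it was not computed. The median OC effect of the 16 genes was -0.53 in sedentary mice and 0.11 in runners. The count was 4 without vehicle sedentary replicate 2 or 3 or vehicle running replicate 1 or 4. Macrophage genes were positive for 3 of 20 (median 0.46), a count that ran from 0 to 6 when 1 library was left out. It was 0 without vehicle sedentary replicate 2, vehicle running replicate 1 or 3, OC sedentary replicate 1 or 2, or OC running replicate 3, and 6 without vehicle sedentary replicate 4 or 5 or vehicle running replicate 5. It was 5 without vehicle sedentary replicate 1 or OC running replicate 2, and 1 without vehicle running replicate 4, OC sedentary replicate 4 or OC running replicate 5. Endothelial genes were positive for 1 and negative for 1 of 28 (median -0.06), and stellate cell genes positive for 1 of 19 (median 0.21). Keratin genes of bile duct and liver epithelium were positive for 0 and negative for 1 of 12 (median 0.49). Hepatocyte identity genes were positive and negative for 0 of 14 (median -0.02). What these markers contribute to the ribosomal and respiratory values was not tested.

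Read the other way, the interaction is the running effect on OC minus the running effect on vehicle. Running changed 0 of 10207 genes (0%) on vehicle and 0 (0%) on OC in edgeR's quasi-likelihood test. At an unadjusted p under 0.05 there were 1414 genes on vehicle (13.9%, with 6.91% higher and 6.95% lower) and 694 on OC (6.80%, with 3.56% higher and 3.24% lower). DESeq2 called 42 and 1. Srd5a1 was at 0.68 with running on vehicle and at -0.49 with running on OC. For Pm20d2 the values were 1.09 and -0.52, and for Etfbkmt -0.35 and 0.57. None of these 6 running effects passed the adjusted threshold.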

How the data were processed

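Liver RNA of 20 mice was sequenced from stranded, paired-end libraries, per the labels' protocols. The submitters' processing notes name STAR, R 4.05, limma and the build mm10. How reads were assigned to genes, and with which annotation, is not given in the sources used here. The unit of the deposited values was taken to be expected counts: those used were whole numbers that the authors had not scaled, judged from the values, and rounding changed none. The planned design had assumed plain counts, and 2 genes with values that were not whole were left out.

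Of 35504 genes in the table, 11511 (32.42%) were left out because their counts had been displaced or could not be placed with certainty, which leaves 23993. Of those left out, 9824 held a 1 followed by 0 only, and 280 held text with 0, or at most a single 1, elsewhere. Displaced counts were held by 570 (moved by 1 column) and 29 (moved by 2), and 806 with low counts were undecided. Each gene list is therefore described by its tested members only. Positions and transcript lengths come from GENCODE vM21 on GRCm38, the build that mm10 names. The longest annotated transcript of each gene gave its length.

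edgeR 4.0.16 (R 4.3.3) was used with filterByExpr at its defaults, TMM scaling and quasi-likelihood fits over the 20 libraries, in which each group had its own mean. The Benjamini-Hochberg adjustment ran over 10207 genes at a threshold of 0.05, and every adjusted p is from that test unless another tool is named. Totals of 10883936 to 16134618 counts over genes with an intact count line set the counting error. The spread between mice set the rest (common biological coefficient of variation 0.178). CPM values are given with the SD of 5 mice. List levels are the mean log2 CPM of the tested members with a prior count of 2. The steps were tested on simulated counts.

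The genes named were the 24 with the smallest interaction p (mean of at least 1 CPM, no predicted genes), the 6 in each direction with the smallest adjusted p for the OC effect in both settings, up to 2 of each list in each direction at an unadjusted p under 0.05, and a panel. Part was left out for length, and a few genes are not reported here. Other members of a list that the text names were chosen after their values were seen, as were 2 lists. The members, lists and rules were chosen with earlier results of these data known. Alternatives were DESeq2 1.42.0, limma 3.58.1 voom, other scalings and filters, libraries left out and a correction for transcript length.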

Additional observations from a re-analysis of the deposited data

Results flagged for a closer look

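In 400 sets of 5 mice (75 genes and 25 lists in 4 groups), 25 had 1 mouse far from the other 4 of its group, by Dixon's criterion for 5 values (0.71). Chance flags about 5 percent of such sets, so single entries carry little weight. All values are log2 CPM, with the range of the other mice of the group.

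In OC running replicate 4, the mean of the list female-biased liver genes was 5.453 (others 4.484 to 4.645), the mean of the list acute phase proteins was 8.13 (others 7.509 to 7.675) and Paqr9 was 8.591 (others 7.591 to 7.747). In OC sedentary replicate 3, the mean of the list growth hormone and IGF1 axis was 6.421 (others 5.744 to 5.893), the mean of the list striated muscle transcripts was 3.117 (others 0.2179 to 0.4691) and Nebl was 4.28 (others 3.46 to 3.681). In the same mouse, Dmgdh was 9.216 (others 8.962 to 9.018). In vehicle sedentary replicate 5, the mean of the list respiratory complex I was 6.923 (others 6.494 to 6.611), the mean of the list respiratory complexes II to V was 8.282 (others 7.772 to 7.859) and the mean of the list other mRNAs of the translation machinery was 8.74 (others 8.503 to 8.525). In the same mouse, the mean of the list liver endothelium was 4.67 (others 4.963 to 5.046) and Cox4i1 was 9.964 (others 9.504 to 9.524). In OC running replicate 3, Srd5a1 was 6.28 (others 5.766 to 5.893) and Hamp was 9.295 (others 8.696 to 8.8). In vehicle running replicate 4, Erlec1 was 5.226 (others 5.312 to 5.335). In vehicle sedentary replicate 2, Isyna1 was 3.571 (others 2.397 to 2.65) and S100a9 was 2.301 (others 0.9149 to 1.179). In OC running replicate 5, Dpy19l3 was 5.621 (others 4.666 to 4.92) and Fgf21 was 0.7379 (others 1.713 to 2.099). In OC running replicate 1, Bnc2 was 1.79 (others 2.475 to 2.709). In OC sedentary replicate 5, Igfbp2 was 8.373 (others 9.053 to 9.203). In vehicle running replicate 5, Mrpl24 was 6.284 (others 6.096 to 6.131) and Mup20 was 6.473 (others 4.762 to 5.13). In vehicle running replicate 1, Prdx4 was 6.578 (others 6.802 to 6.892). In OC sedentary replicate 1, Igfbp1 was 6.859 (others 8.252 to 8.475).

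Vehicle sedentary replicate 2 held 2 of the 25 and vehicle sedentary replicate 5 held 5. Their part in the results is given by the fits without them.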

How the results depend on the processing

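The 0 calls of the interaction by edgeR became 119 with DESeq2, 33 with DESeq2 without its filter on mean counts and 4 with voom and sample quality weights, and leaving out 1 library gave 0 to 2. Its genes at an unadjusted p numbered 626 to 1168 positive and 607 to 1160 negative when 1 library was left out, and 546 and 494 without both vehicle sedentary replicates 2 and 5. The OC effect in sedentary mice had 1665 calls, with 1061 without those 2 libraries and 998 to 1794 when 1 library was left out. In running mice it had 1343 calls, 2224 with voom and sample quality weights and 817 to 1679 when 1 library was left out. Running on vehicle had 0 calls and 42 with DESeq2, with or without its filter, and 0 in every leave-one-out fit. Running on OC had 0 calls and 1 with DESeq2, with or without its filter, and 0 to 1 when 1 library was left out. No value named in the text changed sign while called. The cause of these moves was not tested, apart from the filter of DESeq2, which leaves fewer genes to adjust over.

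No paired analysis was possible because the replicate numbers only follow the order of the samples and mark no shared cage or day. The fits with the trend on transcript length removed, without DESeq2's filter, and without 3 libraries rich in striated muscle transcripts were chosen after seeing the data; the last gave 0 interaction calls, and 72 of 75 ribosomal protein genes stayed positive at an unadjusted p under 0.05. With 5 mice per group the median half-width of the interaction's 95% interval was 0.42, so intervals of smaller differences often included 0. A call at the adjusted threshold needed more than that. In edgeR 247 genes had a fitted interaction past 2-fold, and 0 genes were called.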

Other observations

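Transcripts of striated muscle, which are not made by hepatocytes, differed between livers: the mean of 4 tested genes was 3.12 log2 CPM in OC sedentary replicate 3, 1.64 in vehicle running replicate 2 and 1.42 in OC running replicate 5, against -0.9998 to 0.47 in the other mice. Their interaction had a median of -1.92, with 1 of 4 negative at an unadjusted p under 0.05, and the list was chosen after seeing the data. Of 13 further mRNAs of the translation machinery, a list also chosen after seeing the data, 9 had a positive interaction and 0 a negative one at an unadjusted p under 0.05 (median 0.38).

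Lepr, the leptin receptor, held 71.6 ± 17.6 and 53.6 ± 18.4 CPM in sedentary mice and 44.1 ± 15.4 and 68.3 ± 37.4 CPM in runners (interaction 1.05, edgeR adjusted p = 0.2298), and its interaction was 0.66 without OC running replicate 2. Igfbp1, an insulin-sensitive binding protein, gave 1.10 (-0.03 to 2.23), and 0.64 without the same library. The immediate early gene Klf6 was lowered by OC in sedentary mice (-1.16) and gave -0.45 in runners (interaction 0.70, edgeR adjusted p = 0.228; 0.40 without vehicle sedentary replicate 2).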
